A study of Mus musculus with 88 samples.

Results

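The genes described here are 44 interferon-stimulated genes of the mouse, taken by symbol from the 54532 genes of the count table, and all 44 were found. They were divided by name into 15 type I-like members (the Ifit, Mx and Oas families and the other antiviral effectors Isg15, Rsad2, Usp18, Ifi44 and Cmpk2), 11 gamma-like members (the guanylate-binding proteins, the immunity-related GTPases and the chemokines Cxcl9 and Cxcl10), 5 nucleic acid sensors, 5 transcription factors and 8 other effectors. The tissue was cortex of C57BL/6 mice of both sexes (the supplier text reads C57BL/6J), aged 8 to 9 weeks at a controlled cortical impact over the right somatosensory cortex under isoflurane, given with buprenorphine at 0.05 mg/kg. After perfusion a 4 mm punch was taken from the impact site (ipsilateral) and from the opposite cortex (contralateral), and poly(A) RNA was sequenced from each. Naive mice had no surgery, and their right punch is labelled ipsilateral. No sham group was part of the design, so the impact, the craniotomy and the analgesic cannot be told apart. The ipsilateral groups held 13 naive libraries (7 female, 6 male), 15 libraries at 24 h (7 female, 8 male) and 15 at 72 h (9 female, 6 male), and the contralateral groups held 13, 15 and 16.

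As background, type I interferons (alpha and beta) signal through IFNAR to the ISGF3 complex, which includes STAT2 and IRF9 and binds the interferon-stimulated response element (ISRE). Interferon gamma signals through its own receptor and acts on genes with a gamma-activated site (GAS). Many of these genes answer both kinds of interferon, so the division by name is a working one. In brain, microglia, astrocytes, endothelium and infiltrating myeloid cells can all express them. A punch is a mixture of cells, and more cells of a type cannot be told apart from more RNA per cell.

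Upstream sequences of 9 members are given because the results turn on them or because they carry the motifs that name the 2 branches. Each runs over the 250 bases before a RefSeq start of the gene, on the gene's own strand (GRCm38.p6). Where a gene had several RefSeq starts, the window with the most matches is printed. Capitals mark every match to the ISRE letters (GAAA, any 2 bases, GAAA) or the GAS letters (TTCNNNGAA), searched on both strands, and neighbouring matches may overlap. The first pair, Isg15 (a ubiquitin-like modifier, chr4:156200819-156201068, minus strand) and Ifit3 (an antiviral tetratricopeptide protein, chr19:34583279-34583528, plus strand), rose in injured cortex and hold 3 overlapping and 2 separate ISRE matches.
Isg15: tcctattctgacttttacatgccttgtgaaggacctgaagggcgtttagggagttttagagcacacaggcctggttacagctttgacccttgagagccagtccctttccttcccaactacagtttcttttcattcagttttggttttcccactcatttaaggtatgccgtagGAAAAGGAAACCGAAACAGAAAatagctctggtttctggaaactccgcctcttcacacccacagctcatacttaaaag
Ifit3: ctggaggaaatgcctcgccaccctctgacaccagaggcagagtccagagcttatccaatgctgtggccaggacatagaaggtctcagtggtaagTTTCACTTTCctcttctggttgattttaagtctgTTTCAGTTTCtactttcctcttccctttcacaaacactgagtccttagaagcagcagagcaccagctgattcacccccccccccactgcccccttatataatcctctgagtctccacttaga
Rsad2 (viperin, chr12:26456453-26456702, minus strand) and Cmpk2 (a mitochondrial nucleotide kinase, chr12:26468965-26469214, plus strand) are neighbours that start away from each other. The first rose and the second was called at neither time against naive. The Cmpk2 window ends in 11 bases of annotated exon.
Rsad2: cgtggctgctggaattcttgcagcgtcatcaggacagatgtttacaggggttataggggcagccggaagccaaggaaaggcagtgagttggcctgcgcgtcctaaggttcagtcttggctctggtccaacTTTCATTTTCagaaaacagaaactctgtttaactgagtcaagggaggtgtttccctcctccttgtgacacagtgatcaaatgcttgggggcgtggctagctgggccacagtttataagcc
Cmpk2: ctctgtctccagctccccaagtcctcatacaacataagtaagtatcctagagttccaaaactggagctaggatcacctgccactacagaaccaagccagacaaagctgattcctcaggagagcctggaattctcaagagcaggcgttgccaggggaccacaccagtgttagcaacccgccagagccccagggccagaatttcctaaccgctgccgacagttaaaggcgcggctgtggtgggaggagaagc
Cxcl10 (chr5:92348890-92349139, minus strand) and Cxcl9 (chr5:92328080-92328329, minus strand) are both ligands of the receptor CXCR3. Cxcl10 rose more than any other gamma-like member, and Cxcl9 had too few counts to be tested.
Cxcl10: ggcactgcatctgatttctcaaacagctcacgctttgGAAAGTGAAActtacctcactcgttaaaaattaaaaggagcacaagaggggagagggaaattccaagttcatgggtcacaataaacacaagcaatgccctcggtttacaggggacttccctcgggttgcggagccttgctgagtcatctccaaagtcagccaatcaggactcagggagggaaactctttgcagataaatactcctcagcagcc
Cxcl9: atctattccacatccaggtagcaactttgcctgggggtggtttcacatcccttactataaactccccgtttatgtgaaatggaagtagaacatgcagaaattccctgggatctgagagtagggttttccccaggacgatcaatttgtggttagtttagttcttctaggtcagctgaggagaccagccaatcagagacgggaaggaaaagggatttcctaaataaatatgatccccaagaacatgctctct
Irgm2 (an immunity-related GTPase, chr11:58214727-58214976, plus strand) was the gamma-like member called at 72 h and not at 24 h. Irf1 (chr11:53769764-53770013, plus strand) and Irf8 (chr8:120736108-120736357, plus strand) are interferon regulatory factors with GAS matches in the window printed. The other RefSeq window of each of these factors held 0 matches of either kind.
Irgm2: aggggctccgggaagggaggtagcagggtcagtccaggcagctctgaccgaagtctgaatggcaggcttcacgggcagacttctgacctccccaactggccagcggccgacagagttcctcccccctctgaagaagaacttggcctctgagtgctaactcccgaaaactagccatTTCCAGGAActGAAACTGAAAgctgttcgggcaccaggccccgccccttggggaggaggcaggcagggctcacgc
Irf1: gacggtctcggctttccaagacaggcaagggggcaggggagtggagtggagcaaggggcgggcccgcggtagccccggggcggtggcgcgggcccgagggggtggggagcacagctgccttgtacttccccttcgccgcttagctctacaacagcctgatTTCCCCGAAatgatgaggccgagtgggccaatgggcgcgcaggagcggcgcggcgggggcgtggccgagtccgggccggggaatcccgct
Irf8: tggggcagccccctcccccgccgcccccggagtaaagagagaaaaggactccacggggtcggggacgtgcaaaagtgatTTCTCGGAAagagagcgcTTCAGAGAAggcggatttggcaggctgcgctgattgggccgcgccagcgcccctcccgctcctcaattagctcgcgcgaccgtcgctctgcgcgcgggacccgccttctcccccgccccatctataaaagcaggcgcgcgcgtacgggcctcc

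The RefSeq table held promoter windows for 33 of the 44 members, each of 250 bases before and 50 after the start. A gene with several windows was counted if any of them held a match. Across its 27025 genes, 3.99% held an ISRE match and 9.55% a GAS match. Among the members, 21 of 33 (63.6%) held an ISRE match and 11 of 33 (33.3%) a GAS match. By list, the ISRE letters stood in 6 of 11 type I-like, 8 of 9 gamma-like, 3 of 3 sensor, 1 of 5 transcription factor and 3 of 5 other effector genes. The GAS letters stood in 2 of 11, 4 of 9, 1 of 3, 2 of 5 and 2 of 5. ISRE letters thus stood in windows of both branches. A match describes letters in a window and is neither a bound site nor a cause.

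Libraries had 10.6 to 26.36 M counts (median 16.25 M), and levels are given as counts per M counts (CPM) on TMM-scaled library sizes. Cortical neuron and astrocyte markers were present in every group: their ipsilateral summed medians were 4514 and 4050 CPM in naive cortex, 4616 and 3530 CPM at 24 h, and 3260 and 4655 CPM at 72 h. Animal LF3, a female at 72 h, stood apart on both sides: genes with less than 1500 bp of exon took 14.9% of its ipsilateral and 10.3% of its contralateral counts, against 2.37 to 4.90% in the 86 others. Its mitochondrial shares were 10.5 and 7.80%, against 2.35 to 6.73% in the others. In the ipsilateral LF3 library 4 short members (Isg15, Bst2, Ifi27l2a and Ifitm3) were above all other 72 h libraries and 24 members were below them all. The ipsilateral PF1 library, labelled female, had Xist at 0.107 CPM and Ddx3y at 57.5 CPM, which is the male pattern. The ipsilateral library of PM1 has contradictory sex labels, had Xist at 457 CPM and Ddx3y at 0 CPM, which is the female pattern, and entered no comparison. PF1 was kept under its label, and whether these libraries were exchanged was not tested. Batches A and B both hold naive and 24 h mice, while 72 h mice are in B (5 ipsilateral and 6 contralateral libraries) and in C, which holds 72 h mice alone. With a batch term the fitted 72 h levels therefore rest on the batch B libraries, and batch C adds to the difference between the sexes and to the spread. Counts of some members are uncertain because exons overlap on the same strand (Gbp6 with Gm43302, Gbp7 with Gm43802, Igtp with Irgm2, Irf9 with Rnf31, Parp14 with Gm49730, Rtp4 with Gm45338). Others overlap on opposite strands (among them Cxcl10 with Art3 and Dhx58 with Dhx58os), or a close paralog could share reads (Ifit3 with Ifit3b, Oas1a with Oas1g, Gbp6 with Gbp10).

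In injured cortex nearly every member was higher than in naive cortex within 24 h. Of 43 members tested, 41 were called higher and 0 lower, where 22.9% of all 19126 genes tested were called higher and 20.1% lower (called: adjusted p under 0.05, edgeR quasi-likelihood test). The median log2 fold change was 1.72 over the members and 0.01 over all genes. The type I-like list had 14 of 15 higher with a median of 2.32, and the gamma-like list had 9 of 10 with a median of 1.33. All 5 sensors, 5 transcription factors and 8 other effectors were higher, with medians of 1.27, 1.06 and 1.81. Within batch A alone 40 members were higher (19.4% of all genes), Gbp6 being lost, and within batch B alone 38 (13.1%), with Gbp5, Gbp6 and Igtp lost. Batch B without LF3, a 72 h animal, had 42 higher (21.9%). The median was 1.54 in batch A and 2.17 in batch B, with or without LF3. The plot of fold changes by list shows that most intervals stood well above 0 at both times.

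**Figure D1:**
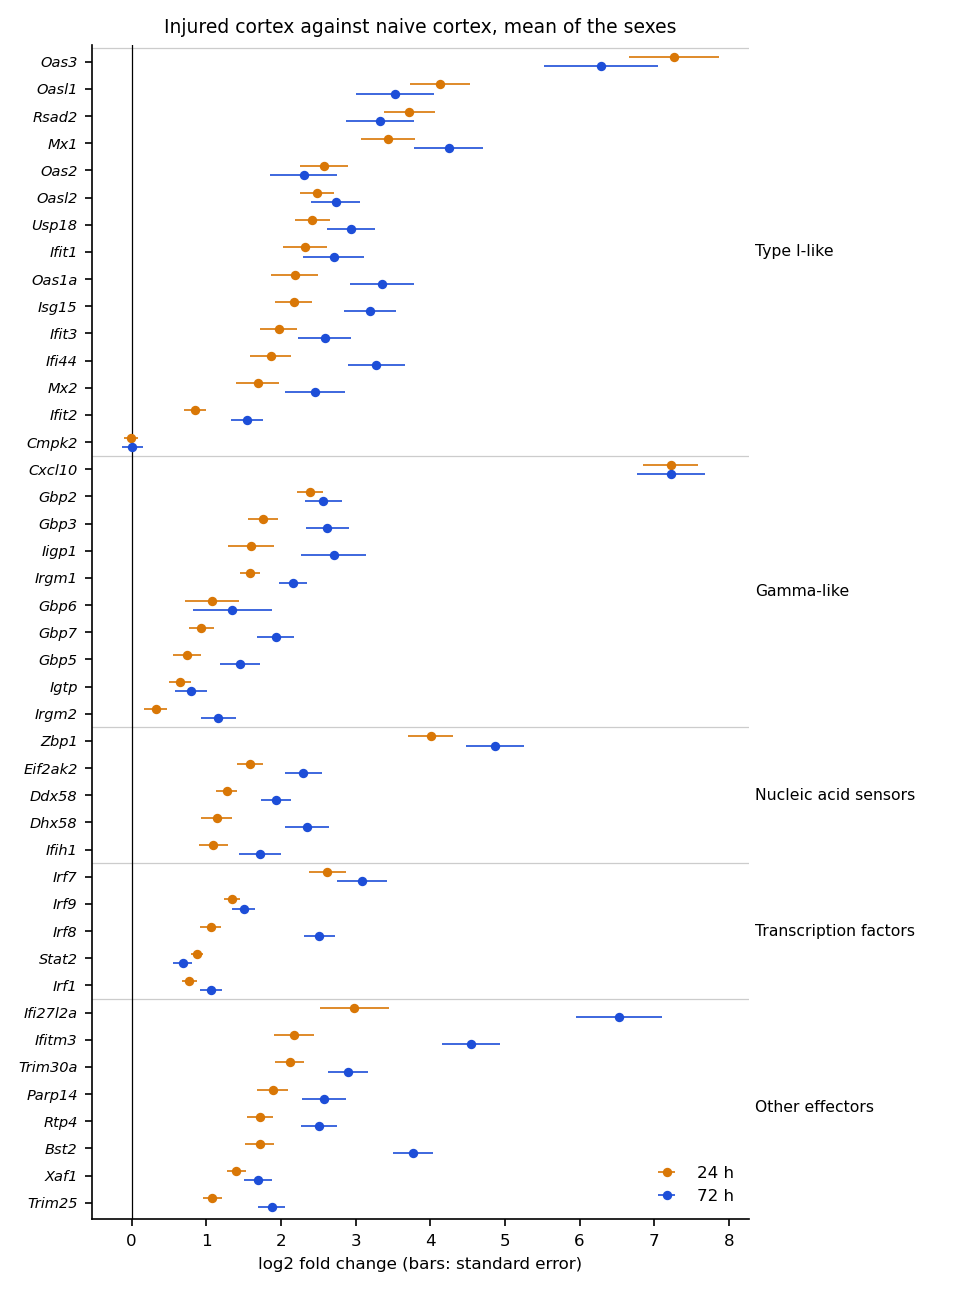
Log2 fold change of each tested member against naive in ipsilateral cortex (x axis, bars give ± SE), grouped by list, with 24 h in orange and 72 h in blue. Oas3 and Cxcl10 lie farthest to the right and Cmpk2 lies at 0 at both times.

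Among the type I-like members, Oas3, which makes the 2-5A messenger that activates RNase L, had the largest change. It was at 0 CPM in the median naive library (highest 0.135), from 0.848 to 11.4 CPM at 24 h (median 4.33), and from 0 to 4.42 CPM at 72 h (median 1.86). All 15 libraries at 24 h and 14 of 15 at 72 h lay above every naive library, the exception being LF3 with 0 counts. Its log2 fold change was 7.27 ± 0.60 (SE; adjusted p = 3.5e-13) at 24 h and 6.29 ± 0.76 (adjusted p = 6.8e-09) at 72 h. Because naive counts were near 0, the size of that fold depends on very few reads.

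Rsad2, which blocks viral replication through a modified nucleotide, spread widely between animals. Naive libraries held 0.609 to 2.46 CPM (median 1.18), those at 24 h 2.34 to 49.4 CPM (median 14.1) and those at 72 h 3.41 to 18.5 CPM (median 7.81). The lowest and highest libraries at 24 h were the females FF3 and DF3, and only FF3 overlapped the naive range. Rsad2 rose by a log2 fold change of 3.72 ± 0.34 (adjusted p = 5.6e-12) at 24 h and 3.33 ± 0.46 (adjusted p = 1e-07) at 72 h. Ifit1, which binds viral RNA that lacks the host cap methylation, had 0.842 to 5.60 CPM in naive, 4.50 to 30.0 CPM at 24 h and 6.52 to 29.4 CPM at 72 h. Again FF3 was lowest and DF3 highest at 24 h, and 14 of 15 libraries were above the naive range, rising to 15 of 15 at 72 h. The log2 fold changes of Ifit1 were 2.32 ± 0.29 and 2.70 ± 0.41.

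The GTPases Mx1 and Mx2, which trap viral nucleocapsids, rose by 3.43 ± 0.36 and 1.69 ± 0.29 on the log2 scale at 24 h and by 4.25 ± 0.46 and 2.46 ± 0.41 at 72 h. Mx1 was 0.0523 to 0.633 CPM in naive cortex and 0.864 to 8.71 CPM at 24 h, with no overlap. Among the other genes of the oligoadenylate synthetase family, Oas1a (2.19 ± 0.32), Oas2 (2.57 ± 0.32), Oasl1 (4.13 ± 0.40) and Oasl2 (2.48 ± 0.23) all rose at 24 h, and at 72 h their changes were 3.35 ± 0.43, 2.30 ± 0.45, 3.53 ± 0.53 and 2.74 ± 0.33. Oasl1 went from 0 to 1.13 CPM in naive cortex to 1.15 to 13.2 CPM at 24 h and 1.09 to 5.11 CPM at 72 h, just apart from naive at 24 h and overlapping it at 72 h. Oas1a had 0.241 to 1.22 CPM in naive, 1.09 to 7.44 CPM at 24 h and 0.855 to 13.7 CPM at 72 h, the lowest 72 h library being LF3. Isg15 had 0.925 to 3.03 CPM in naive, 3.15 to 16.8 CPM at 24 h and 4.51 to 28.6 CPM at 72 h, the last value being LF3. No injured library overlapped the naive range, and its log2 fold changes were 2.17 ± 0.25 and 3.19 ± 0.34 (2.99 at 72 h without LF3). Ifit3 had 1.95 to 9.71 CPM in naive, 8.58 to 37.5 CPM at 24 h and 10.3 to 50.3 CPM at 72 h, and rose by 1.97 ± 0.25 and 2.58 ± 0.35. Ifi44, a cytoplasmic protein of less settled role, rose by 1.86 ± 0.27 and 3.28 ± 0.38, with 10 of 15 and then 14 of 15 libraries above the naive range of 0.244 to 1.83 CPM. Usp18, the protease that removes ISG15 and restrains receptor signalling, rose by 2.42 ± 0.23 and 2.94 ± 0.32. Ifit2 had the smallest called type I-like change at 24 h, 0.84 ± 0.15, followed by 1.54 ± 0.21 at 72 h.

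Cmpk2 was the exception. Its libraries held 24.8 to 32.3 CPM in naive cortex, 23.4 to 40.3 CPM at 24 h and 14.5 to 35.9 CPM at 72 h, and the 3 groups overlapped. The log2 fold change was -0.01 ± 0.09 (adjusted p = 0.94) at 24 h and 0.01 ± 0.14 (adjusted p = 0.96) at 72 h. Without the batch term it was called lower at 72 h, at -0.22 (adjusted p = 0.048). Its naive level per kilobase of exon, 7.05 mean CPM, was the second highest of the members after Ifitm3 at 11.3, and Oas3 was lowest at 0.0035.

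**Figure D2:**
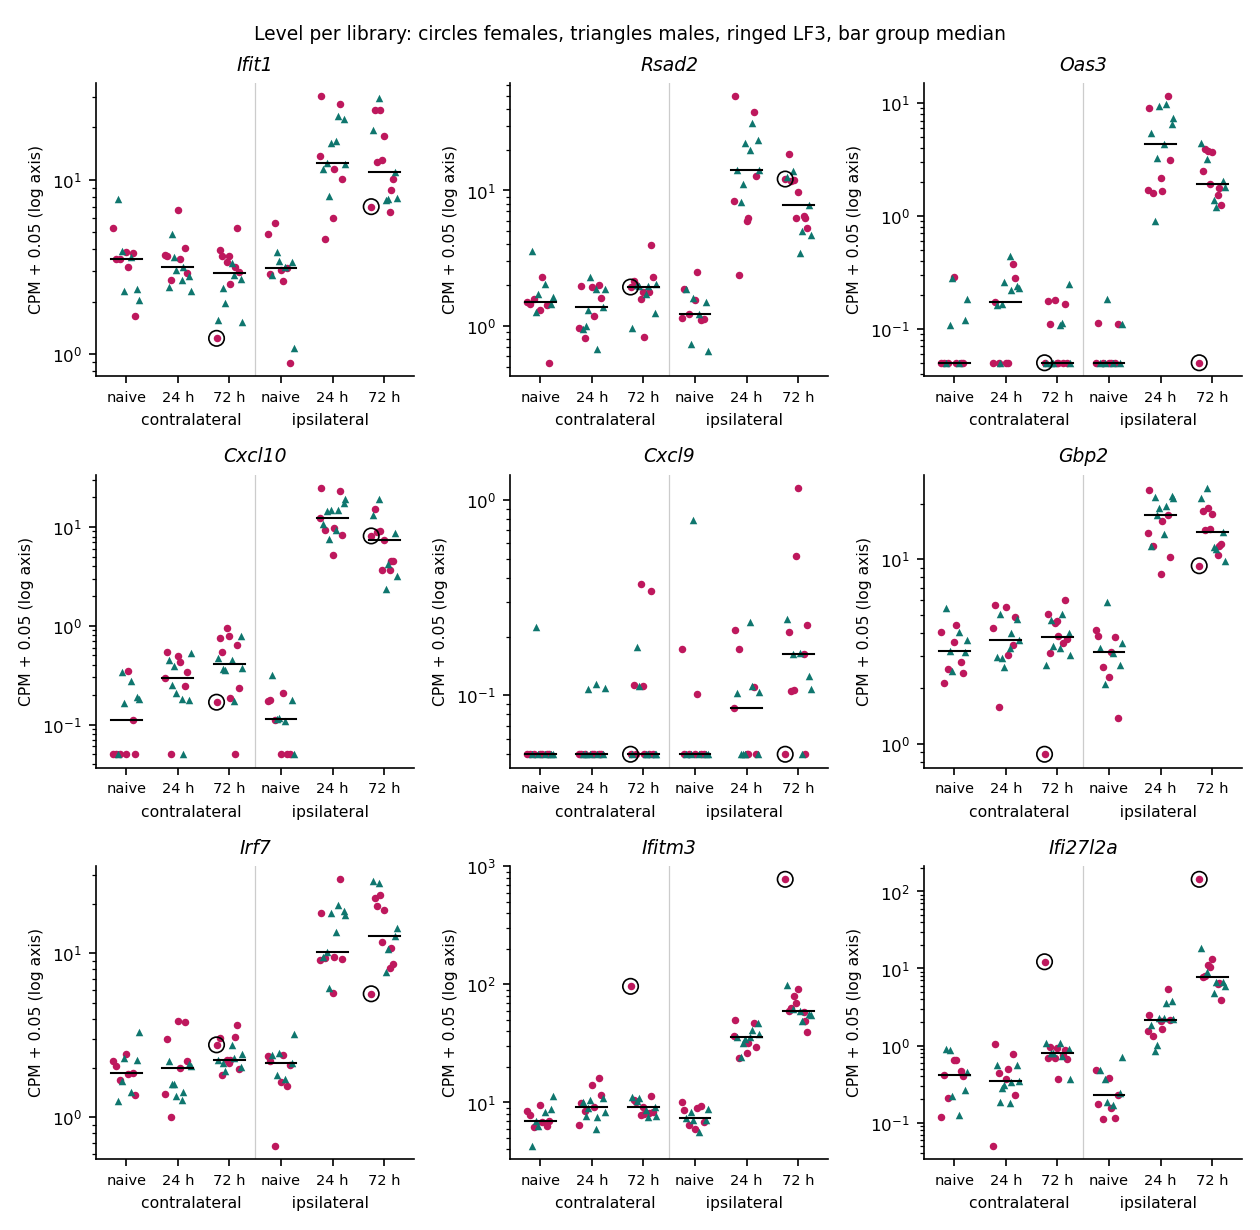
CPM (plus 0.05, log axis) of 9 members in each library at naive, 24 h and 72 h, contralateral on the left and ipsilateral on the right of each panel; circles are females, triangles males, bars medians, and LF3 is ringed. Ipsilateral injured libraries of Cxcl10 all lie above the naive ones, and those of Cxcl9 overlap them near 0.

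Cxcl10, the CXCR3 ligand that draws T and NK cells, had the largest gamma-like change. It was 0 to 0.267 CPM in naive cortex (median 0.0627), 5.15 to 24.8 CPM at 24 h (median 12.4) and 2.31 to 18.9 CPM at 72 h (median 7.38). All 15 libraries at each time were above the highest naive one. Its log2 fold change was 7.22 ± 0.37 (adjusted p = 1.8e-19) at 24 h and 7.22 ± 0.46 (adjusted p = 2e-16) at 72 h. Cxcl9, classically tied to interferon gamma, stayed near its detection limit: 14 counts in all 13 naive libraries, 13 in the 15 at 24 h and 47 in the 15 at 72 h. Of those counts 11 came from the naive animal EM3 and 19 from the female SF3 at 72 h, so it was given no fold.

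Gbp2, a guanylate-binding protein that attacks the vacuoles of intracellular pathogens, had 1.32 to 5.79 CPM in naive, 8.24 to 23.5 CPM at 24 h and 9.16 to 24.3 CPM at 72 h. No injured library overlapped the naive ones, and its log2 fold changes were 2.38 ± 0.18 (adjusted p = 1.3e-14) and 2.57 ± 0.24. Gbp3 had 1.32 to 7.94 CPM in naive, 8.41 to 18.1 CPM at 24 h and 6.11 to 35.2 CPM at 72 h, with LF3 lowest at 72 h. Gbp3 rose by 1.76 ± 0.20 and 2.62 ± 0.29, Gbp7 by 0.93 ± 0.17 and 1.93 ± 0.24, and Gbp5 by 0.74 ± 0.19 and 1.45 ± 0.27. Gbp6 was called at both times (1.07 ± 0.36, adjusted p = 0.015; 1.35 ± 0.53, adjusted p = 0.032), although no injured library exceeded the naive animal EM3 at 3.10 CPM. The 72 h call of Gbp6 was lost on leaving out KF3, KM3, LM2, PF1 or PM2, with a lowest value of 1.13.

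The immunity-related GTPases, which mark or spare membranes during intracellular infection, differed in size. Irgm1 had 4.87 to 11.8 CPM in naive cortex and 20.6 to 36.7 CPM at 24 h, without overlap, and rose by 1.59 ± 0.13 (adjusted p = 5.5e-13) and then 2.16 ± 0.19. Iigp1 had 0.301 to 3.17 CPM in naive, 0.973 to 7.64 CPM at 24 h and 0.977 to 9.76 CPM at 72 h, with 8 and then 14 of 15 libraries above the naive range, and rose by 1.60 ± 0.31 and 2.71 ± 0.44. Igtp had the smallest called gamma-like change at 24 h, 0.65 ± 0.14 (adjusted p = 0.00027), and 0.80 ± 0.21 at 72 h. Irgm2 had 3.73 to 10.5 CPM in naive, 5.37 to 10.2 CPM at 24 h and 3.91 to 17.6 CPM at 72 h, where 10 of 15 libraries exceeded the naive range. Its log2 value was 0.32 ± 0.16 (adjusted p = 0.11) at 24 h and 1.16 ± 0.24 (adjusted p = 8.3e-05) at 72 h. The 24 h value ranged from 0.26 to 0.42 over single libraries left out and was called without CF2, EM3 or LF3.

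Of the sensors, Zbp1, which recognises Z-form nucleic acid and can trigger necroptosis, changed most. It was 0 to 0.650 CPM in naive, 1.22 to 6.77 CPM at 24 h and 3.33 to 9.06 CPM at 72 h, with no overlap, and rose by 4.00 ± 0.30 (adjusted p = 3e-14) and 4.86 ± 0.39 on the log2 scale. The RNA helicases Ifih1 (MDA5), Ddx58 (RIG-I) and Dhx58 (LGP2) rose by 1.09 ± 0.19, 1.27 ± 0.14 and 1.14 ± 0.21 at 24 h and by 1.72 ± 0.28, 1.93 ± 0.20 and 2.34 ± 0.29 at 72 h. Ddx58 had 3.84 to 9.38 CPM in naive, 9.19 to 20.9 CPM at 24 h and 14.6 to 30.5 CPM at 72 h, and Dhx58 had 0.892 to 2.67, 1.51 to 5.63 and 3.30 to 10.6 CPM. Both ranges at 24 h overlapped the naive one and neither did at 72 h. Eif2ak2, the kinase PKR that halts translation on double-stranded RNA, rose by 1.59 ± 0.17 and 2.30 ± 0.25.

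The transcription factors changed in different measure. Irf7, the factor that amplifies type I interferon production, had 0.622 to 3.17 CPM in naive, 5.67 to 28.2 CPM at 24 h and 5.62 to 27.4 CPM at 72 h. No injured library overlapped, and it rose by 2.62 ± 0.24 (adjusted p = 8.5e-12) and 3.09 ± 0.33. Irf8, also a factor of microglia and other myeloid cells, had 3.90 to 7.42 CPM in naive, 9.75 to 16.96 CPM at 24 h and 9.40 to 54.6 CPM at 72 h, the lowest at 72 h being LF3. It rose by 1.06 ± 0.14 at 24 h and 2.51 ± 0.21 at 72 h (2.73 ± 0.16 without LF3). Irf9 and Stat2, both parts of ISGF3, rose by 1.34 ± 0.11 and 0.87 ± 0.09 at 24 h and by 1.50 ± 0.16 and 0.69 ± 0.13 at 72 h. Stat2 had 23.3 to 34.1 CPM in naive, 39.7 to 69.4 CPM at 24 h and 28.3 to 68.4 CPM at 72 h, with 15 and then 14 of 15 libraries above the naive range. Irf1 had 4.03 to 9.82 CPM in naive, 9.79 to 13.2 CPM at 24 h and 12.1 to 18.8 CPM at 72 h. Irf1 rose by 0.77 ± 0.10, the smallest change of this list at 24 h, and by 1.06 ± 0.14.

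Among the other effectors, Ifitm3, which blocks viral fusion at endosomes, had 5.61 to 10.1 CPM in naive and 23.9 to 49.9 CPM at 24 h, and rose by 2.18 ± 0.27 (adjusted p = 1e-08). At 72 h it spanned 39.3 to 776 CPM with a median of 60.0, where 776 was LF3, and its log2 fold change of 4.54 ± 0.39 became 3.10 ± 0.19 without LF3. Ifi27l2a, a small mitochondrial and membrane protein, had 0.0622 to 0.670 CPM in naive, 0.795 to 5.32 CPM at 24 h and 3.81 to 144 CPM at 72 h, with LF3 again highest. Its changes were 2.98 ± 0.46 at 24 h and 6.53 ± 0.57 at 72 h (4.96 ± 0.39 without LF3). Bst2 (tetherin, which holds budding virus at the membrane) rose by 1.72 ± 0.19 and 3.77 ± 0.27, the latter 3.32 ± 0.23 without LF3. The ubiquitin ligases Trim25 and Trim30a rose by 1.08 ± 0.13 and 2.12 ± 0.19 at 24 h and by 1.88 ± 0.18 and 2.90 ± 0.27 at 72 h. Trim25 had 5.48 to 11.3 CPM in naive, 11.5 to 27.1 CPM at 24 h and 18.2 to 45.8 CPM at 72 h, without overlap between naive and injured. Parp14, an ADP-ribosyltransferase, Rtp4, a receptor chaperone that restrains some viruses, and Xaf1, a pro-apoptotic protein, rose by 1.89 ± 0.21, 1.72 ± 0.18 and 1.40 ± 0.13 at 24 h and by 2.58 ± 0.30, 2.51 ± 0.25 and 1.70 ± 0.19 at 72 h.

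At 72 h, 42 of 43 members were higher than naive and 0 lower, where 27.8% of all genes tested were called higher and 20.7% lower. The median was 2.57 over the members and 0.06 over all genes. The list medians were 2.94 for type I-like (14 of 15 called), 2.05 for gamma-like (10 of 10), 2.30 for sensors (5 of 5), 1.50 for transcription factors (5 of 5) and 2.74 for other effectors (8 of 8). Without LF3 the count stayed at 42 and the median was 2.73, beside 25.7% of all genes called higher. The median also moved with the batches: it was 2.25 with no batch term, 2.92 in batch B alone and 3.09 in batch B without LF3. Without the PF1 library 41 were higher.

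In the direct comparison of 72 h with 24 h about as many members were called as were not. Of 43 members 23 were higher at 72 h and 0 lower, where 21.7% of all genes were called higher and 15.3% lower, and the median was 0.69 (0.01 over all genes). The type I-like list had 4 of 15 called (Ifit2, Oas1a, Isg15 and Ifi44) and a median of 0.52, and the gamma-like list 6 of 10 with a median of 0.64. All 5 sensors, 1 of 5 transcription factors and 7 of 8 other effectors were called, with medians of 0.71, 0.29 and 0.79. Ifi44 rose by 1.41 ± 0.33 (adjusted p = 0.00077), Gbp7 by 1.00 ± 0.21 (adjusted p = 0.00029), Irf8 by 1.46 ± 0.19 (adjusted p = 8.2e-08) and Bst2 by 2.06 ± 0.23 (adjusted p = 7e-09). Among the other called members, Oas1a rose by 1.16 ± 0.36, Isg15 by 1.02 ± 0.30, Iigp1 by 1.11 ± 0.37, Gbp3 by 0.86 ± 0.25, Irgm2 by 0.84 ± 0.21 and Irgm1 by 0.57 ± 0.17. The sensors rose by 0.63 (Ifih1) to 1.21 (Dhx58). Of the 5 members with the largest changes at 24 h, Zbp1 was called higher (0.86 ± 0.30), and 4 were not called in either direction: Cxcl10 at 0.00 ± 0.22 (adjusted p = 1), Rsad2 at -0.39 ± 0.41 (adjusted p = 0.48), Oasl1 at -0.60 ± 0.44 (adjusted p = 0.29) and Oas3 at -0.98 ± 0.50 (adjusted p = 0.12).

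These later values depend on the batches and on LF3. Without LF3, 26 members were higher (18.5% of all genes), with Ifit3 (0.81), Mx1 (0.99) and Xaf1 (0.47) added, and the changes of Ifi27l2a and Ifitm3 were 1.99 ± 0.31 and 0.92 ± 0.17 in place of 3.55 ± 0.45 and 2.36 ± 0.34. Without LM2 the count was 15, the calls lost including Oas1a, Irgm1, Zbp1, Rtp4 and Trim30a. In batch B alone 13 were higher (13.9% of all genes) and without LF3 in that batch 23 (19.5%). With no batch term 22 were higher and 5 lower (26 and 23.2% of all genes), and the lower ones were Oas3 at -1.16, Rsad2 at -1.02, Oasl1 at -0.86, Cxcl10 at -0.79 and Cmpk2 at -0.23. Without the term and without LF3 22 were higher and 4 lower (27.8 and 28.3% of all genes), Cmpk2 no longer among them.

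The median level of several members differed between the batches at 72 h, with LF3 included in batch B. Rsad2 was at 16.98 CPM in batch B at 24 h, 12.5 CPM in batch B at 72 h and 6.23 CPM in batch C at 72 h. Cxcl10 was at 12.2, 13.1 and 4.32 CPM in the same order, and Ifit1 at 14.4, 19.2 and 9.39 CPM. Some members called higher at 72 h against 24 h also had a batch C median no higher than batch B at 24 h. Among them Isg15 was at 9.59, 16.4 and 7.53 CPM and Irgm1 at 30.89, 43.15 and 30.81 CPM. Ifih1 was at 11.4, 16.3 and 11.0 CPM and Rtp4 at 7.58, 12.8 and 7.42 CPM. By contrast Irf8 was at 12.0, 31.9 and 40.4 CPM, and Trim25 at 18.9, 32.3 and 35.4 CPM, so that the medians of both 72 h batches were above that at 24 h. The LF3 library was not above 24 h. It held 9.40 CPM of Irf8 and 18.2 CPM of Trim25, where batch B at 24 h held 9.91 to 14.2 and 14.1 to 27.1 CPM. For Rsad2, Cxcl10, Isg15, Irgm1, Ifih1 and Rtp4 the batch medians differ at 72 h. Since batch C holds 72 h mice alone, its animals and its batch cannot be told apart.

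**Figure D3:**
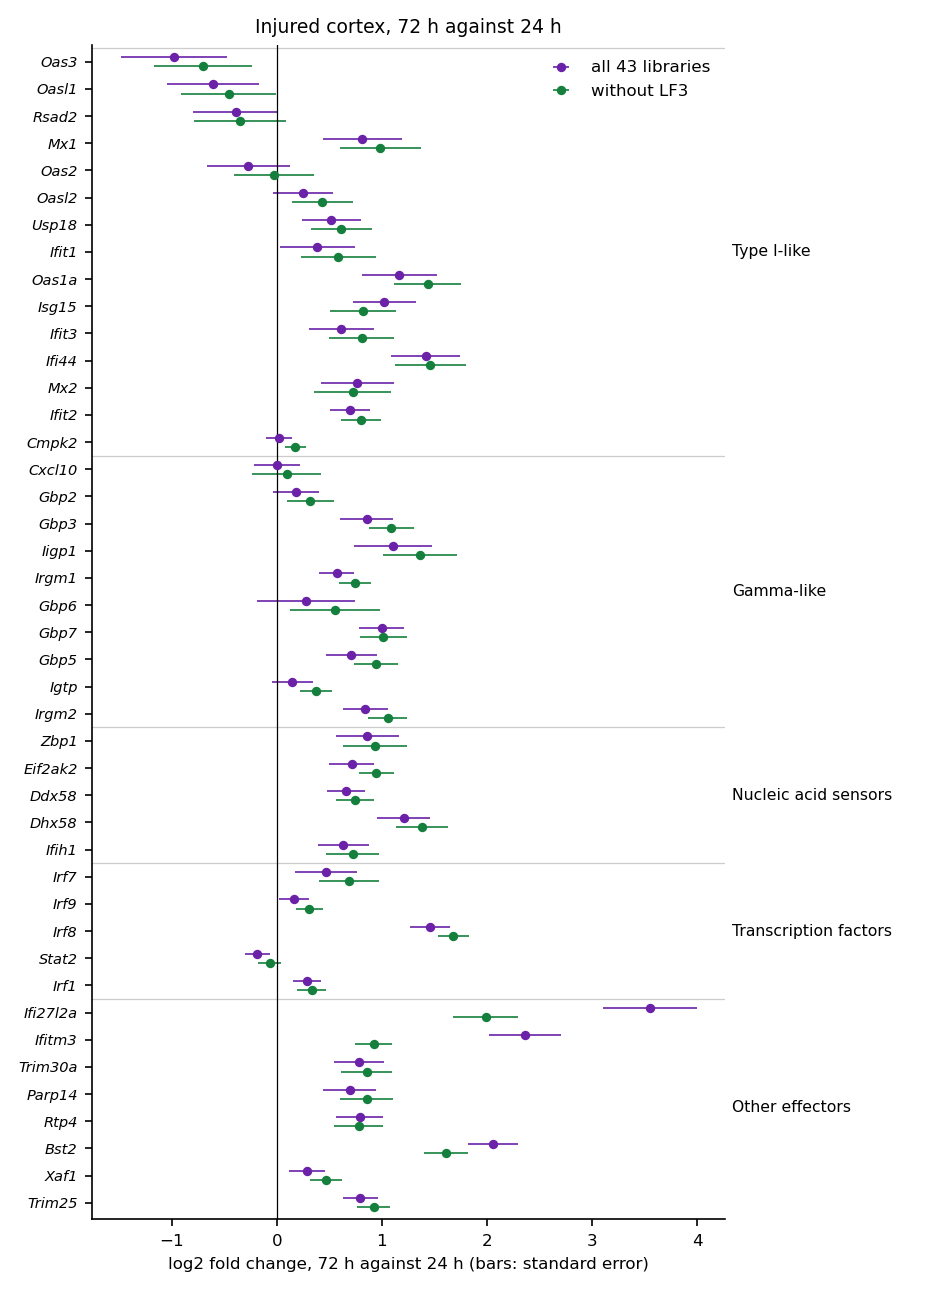
Log2 fold change of each tested member at 72 h against 24 h in ipsilateral cortex (x axis, bars give ± SE), with all 43 libraries and without LF3. Ifi27l2a, Ifitm3 and Bst2 lie farthest to the right and move left without LF3, while Oas3 and Oasl1 lie left of 0.

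For each library the median log2 difference from the naive mean was taken over a list. It was computed from log2(CPM + 0.5) and not from the fit, so it need not match the fitted changes. For the type I-like list it was -0.53 to 0.26 in naive, 0.73 to 2.88 at 24 h (median 1.89) and 1.27 to 3.01 at 72 h (median 1.90). All 15 libraries at each time were above every naive library. For the gamma-like list it was -0.63 to 0.55 in naive, 0.38 to 1.51 at 24 h (median 1.05) and 0.14 to 2.21 at 72 h (median 1.45). Here 14 of 15 exceeded the naive range at each time, the exceptions being the female QF1 at 24 h and LF3 at 72 h. The type I-like median differed more between animals at 24 h than the gamma-like one, with FF3 lowest and DF3 and RF1 highest.

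**Figure D4:**
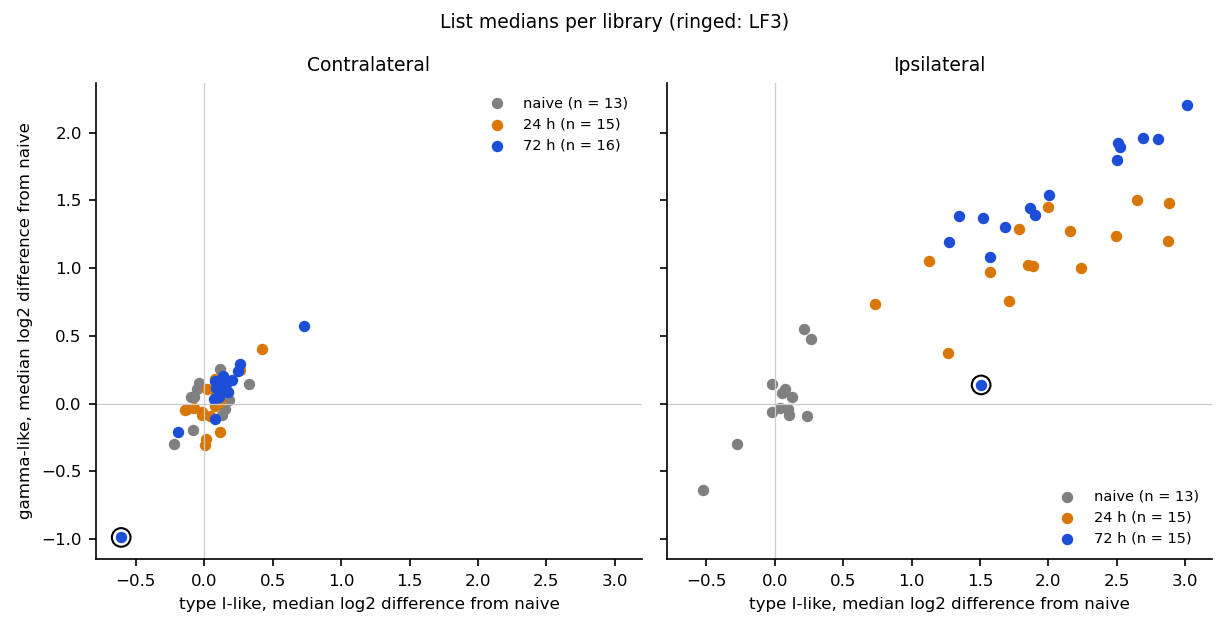
Median log2 difference from naive over the type I-like (x axis) and gamma-like members (y axis) in each library, contralateral in the left panel and ipsilateral in the right, coloured by time, LF3 ringed. Ipsilateral injured libraries lie right of the naive ones, and contralateral libraries of all times overlap.

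In the contralateral cortex few members were called. Of 39 tested (Oas3, Oasl1, Cxcl9, Cxcl10 and Zbp1 had too few counts), 0 were called at 24 h by edgeR and 0 by DESeq2, with 2 at an unadjusted p under 0.05, where 0.819% of 18436 genes were called higher and 1.29% lower. The median was -0.01 (0.00 over all genes), but the batches lay on either side of it. In batch A alone the median was -0.18, with 11 of 39 values above 0 and 9 at an unadjusted p under 0.05, and in batch B alone it was 0.27, with 36 of 41 above 0 and 3 at an unadjusted p under 0.05, with 0 called in either. Ifit3 had 2.64 to 6.46 CPM in naive and 4.75 to 12.2 CPM at 24 h, where 9 of 15 libraries exceeded the naive range. Without LF3 it was called at 24 h, at 0.48 (adjusted p = 0.039), beside 2.39% of all genes higher.

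At 72 h 1 of 39 contralateral members was called higher, where 0.244% of all genes were. That member was Ifitm3, at 1.45 ± 0.34 (adjusted p = 0.047), and without LF3, whose 96.2 CPM exceeded every other library, it was 0.35 ± 0.17 (adjusted p = 0.85) and 0 members were called (3 at an unadjusted p under 0.05), beside 0.0922% of all genes. Its call was lost on leaving out any 1 of 33 of the 44 libraries. Ifi27l2a was at 2.58 ± 0.61 (adjusted p = 0.050) and at 1.10 without LF3. Against 24 h, 3 members were higher (8.41% of all genes) and Stat2 was lower at -0.33 ± 0.10 (0.803% of all genes). The higher ones were Bst2 (0.83), Ifi27l2a (2.70) and Ifitm3 (1.13), which without LF3 were 0.13, 1.22 and 0.04, with 0 called (0.244% of all genes) and 2 at an unadjusted p under 0.05. Without the batch term Irf8 was called at 72 h, at 0.57 (adjusted p = 0.0027; 2.22% of all genes higher), and at 0.55 (adjusted p = 0.0025; 3.06%) when LF3 was left out too. Irf8 had 2.13 to 7.96 CPM in naive and 5.47 to 9.10 CPM at 72 h, which overlap. At 72 h against naive the median of the members moved with the fit. With RLE normalization it was -0.04, with 18 of 39 values above 0. In batch B alone it was 0.24 (0.08 over all genes), with 33 of 41 above 0. Without LF3 in that batch it was 0.29, with 36 of 41 above 0. With no batch term it was 0.08, with 31 of 39 above 0, and 0.13, with 34 of 39, when LF3 was left out too. Ifit1 had medians of 3.48, 3.11 and 2.86 CPM in naive, at 24 h and at 72 h, Rsad2 of 1.46, 1.32 and 1.90 CPM, and Gbp2 of 3.14, 3.62 and 3.73 CPM. In the per-library list medians, contralateral type I-like values ran from -0.14 to 0.42 at 24 h and from -0.61 to 0.73 at 72 h, with the female QF1 highest at 24 h, LF3 lowest and the female TF2 highest at 72 h. The gamma-like values of these 3 animals were likewise the extremes, 0.41, -0.99 and 0.57. Transcription factor medians exceeded every naive library in 4 of 15 libraries at 24 h and 6 of 16 at 72 h. Other effector medians ran from -0.35 to 0.47 in naive and from 0.08 to 0.72 at 72 h.

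Cxcl10 could not be tested under the count filter on this side. It was 0 to 0.298 CPM in naive, 0 to 0.495 CPM at 24 h with 6 of 15 libraries above the naive range, and 0 to 0.901 CPM at 72 h with 11 of 16 above. Fitted without the filter, its log2 values were 1.49 ± 0.53 (adjusted p = 0.24) and 2.20 ± 0.71 (adjusted p = 0.16), neither of them called.

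Within animals, comparing the punches of both sides, 42 of 43 members were higher ipsilaterally at 24 h, where 23.7% of 19946 genes were, and 42 at 72 h, where 31.1% were. The medians were 1.62 and 2.06 (-0.02 over all genes at both times). In naive mice 0 members and 0 of all genes differed by edgeR (1 member at an unadjusted p under 0.05). Cmpk2 was at 0.05 ± 0.07 at 24 h and lower ipsilaterally at 72 h, at -0.21 ± 0.07 (adjusted p = 0.013), where 30.6% of all genes were lower, although in batch B alone it was 0.20 (adjusted p = 0.16). Oas3 differed by 5.21 and 5.28, Cxcl10 by 5.59 and 4.11, Rsad2 by 3.39 and 2.19, and Irf8 by 0.92 and 2.31. Irgm2, not called against naive at 24 h, differed between the sides at 24 h by 0.57 ± 0.11. The type I-like medians were 2.28 and 2.19, and the gamma-like ones 1.37 and 1.65. Without animal PF1 the counts were 42 higher at 24 h and 43 called at 72 h, as with it.

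No difference between the sexes in the response was called. The interaction of sex and injury was called for 0 members at either time on either side (0% of all genes) by edgeR, and 0 by DESeq2. At an unadjusted p under 0.05 there were 1 ipsilateral member at 24 h (Igtp, -0.68 ± 0.28), 2 at 72 h (Oasl1, 1.98 ± 0.83, and Zbp1, 1.30 ± 0.64), and 3 and 2 contralaterally. In the ipsilateral cortex of females 40 members were higher at 24 h (16.2% of all genes) and 42 at 72 h (26.7%), and in males 40 (16.1%) and 41 (20.8%). The female 72 h group holds LF3 and also PF1, which had the male pattern of Xist and Ddx3y and was kept under its label. Without the PF1 library the ipsilateral interaction at 72 h was called for 0 members, with 3 at an unadjusted p under 0.05. Without LF3 these counts were likewise 0 and 3. The members not called at 24 h were Cmpk2 and Irgm2 in both sexes, with Igtp in females (0.31) and Gbp6 in males (0.50). In naive mice 0 members differed between the sexes on either side, with 3 ipsilateral and 2 contralateral members at an unadjusted p under 0.05 (0.0366 and 0.0325% of all genes were called). Ifitm3 and Ifi27l2a were the 2 members called in contralateral females at 72 h (3.07% of all genes higher), and 0 were without LF3.

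The genes around the members were taken from lists of the pathway. Of 11 interferon genes 0 had enough counts to be tested: Ifnb1 had 4 counts over all ipsilateral naive libraries, 7 at 24 h and 2 at 72 h, and Ifng had 0, 4 and 6. Ifna1, Ifna4, Ifna5, Ifnl2 and Ifnl3 had 0 counts in every library compared. Of 11 receptor and Jak-Stat genes 8 were higher at 24 h and 8 at 72 h (11 without LF3), with medians of 0.49 and 0.96. Of all genes tested 22.9% were higher at 24 h and 27.8% at 72 h (25.7% without LF3). Socs3, the feedback inhibitor of Jak kinases, rose by 3.92 ± 0.15 on the log2 scale at 24 h, Ifnlr1, the lambda receptor chain, by 2.76 ± 0.34, and Jak1 by 0.49 ± 0.06. Ifnlr1 was scarce, with an average log2 CPM of -0.69 over the libraries of the side comparison, so its fold rests on few reads. Of 11 genes upstream of interferon 6 were higher at 24 h and 9 at 72 h (22.9 and 27.8% of all genes). Among them Myd88 was at 1.62 ± 0.10, Tlr7 at 1.34 ± 0.16, Tmem173 (STING) at 1.03 ± 0.14 and Ticam1 (TRIF) at 0.56 ± 0.09 at 24 h. Of 26 further interferon-stimulated genes tested, 21 were higher at 24 h (22.9% of all genes). At 72 h 23 were higher (27.8% of all genes) and Adar was lower at -0.66 (20.7% of all genes were lower). Nlrc5, the activator of MHC class I genes, rose by 2.504 ± 0.19 at 24 h, and the DNA-sensing family members Ifi204, Ifi207 and Ifi211 by 4.67 ± 0.38, 4.07 ± 0.34 and 5.16 ± 0.50.

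In the ipsilateral cortex the summed markers of monocytes and macrophages, neutrophils and endothelium had higher medians at both times than in naive cortex. Those of the other cell types were not higher at both times. Over all genes 22.9% were called higher and 20.1% lower at 24 h, and 27.8 and 20.7% at 72 h. The summed level of 6 monocyte and macrophage markers was 6.197 to 28.5 CPM in naive, 26.8 to 258 CPM at 24 h and 175 to 1034 CPM at 72 h, with 5 of 6 and then 6 of 6 called higher. The 6 neutrophil markers had medians of 9.03, 68.4 and 43.97 CPM, with 5 of 5 and 4 of 5 tested markers higher and Ly6g at 0 in naive cortex. Microglial markers had medians of 213, 198 and 667 CPM, with 1 of 5 higher and 3 lower at 24 h and 5 of 5 higher at 72 h. Endothelial markers had medians of 180, 228 and 360 CPM, with 2 and then 3 of 4 higher. Cortical neuron markers, with the medians given above, had 2 of 6 lower at 24 h and 2 lower and 1 higher at 72 h. Astrocyte markers had 2 of 4 higher and 1 lower at 24 h and 3 higher and 1 lower at 72 h. LF3 had the highest neuron sum at 72 h on both sides, 12729.5 CPM ipsilaterally and 14253.4 CPM contralaterally, and these marker calls include it. The summed T and NK cell markers had medians of 7.84, 7.80 and 5.27 CPM, most of it Trbc2 (medians 7.77, 7.08 and 4.53 CPM), the 1 marker of 9 with enough counts to be tested and not called at either time. The other T and NK cell markers had few counts: over all ipsilateral naive, 24 h and 72 h libraries Cd8a had 13, 22 and 49, Cd3e 17, 28 and 34, Cd3g 8, 21 and 24, Cd3d 1, 11 and 14, and Ncr1 2, 8 and 10. The 5 plasmacytoid dendritic cell markers had summed ipsilateral medians of 376, 351 and 362 CPM, with Tcf4 by far the most abundant. Its average log2 CPM over the libraries of the side comparison was 8.48. That of Cox6a2 was 2.41, of Ly6d 0.45 and of Ccr9 -1.01, and Klk1 had too few counts to be tested. The sum therefore follows Tcf4 and gives no level for these cells. In the contralateral cortex the monocyte medians were 10.3, 12.1 and 18.0 CPM and the microglial ones 210.0, 210.3 and 248 CPM. The part of these cells in the members' changes was not tested.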

How the data were processed

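The authors deposited raw counts per gene and library. The submitters' processing notes name HISAT2 2.0.5 as aligner and mm10 as genome build; how reads were assigned to genes, with which annotation and strand setting, is not given in the sources used here. Gene symbols, exon lengths and overlaps came from GENCODE M21 (54495 of 54532 genes with a symbol), and promoter sequences from RefSeq (GRCm38.p6). All CPM and log2 figures are this re-analysis' own, derived from the deposited counts.

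Libraries were grouped by sex, treatment, time and side from the labels, and each animal is a replicate. The ipsilateral library of PM1 was left unassigned because its labels contradict each other on sex, so 87 of 88 libraries were compared. Ipsilateral (43 libraries, 19126 genes after filterByExpr) and contralateral libraries (44, 18436 genes) were fitted separately with edgeR 4.0.16 (limma 3.58.1, R 4.3.3): TMM normalization, sex-by-treatment group means, a batch term and the two-sided quasi-likelihood F test, with Benjamini-Hochberg adjustment over all genes and calls at an adjusted p under 0.05. Folds are means of both sexes, and each SE is the log2 fold change divided by the square root of F. Side comparisons used 43 animals and 19946 genes with the animal as a block, the pairing coming from the animal named in the labels. Per-library list medians used log2(CPM + 0.5). No library of a group duplicated another: the most alike pair had a chi-square per gene of 2.66. On simulated data for 24 h against naive, ipsilateral, over 19126 genes, 64.2, 83.6 and 90.9% of genes changed 1.5-, 2- and 4-fold were called, and 4.22% of calls were false. In that simulation only a small part of the genes changed, with no batch difference and no library like LF3. Its rates therefore need not hold for these data.

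The members and the other lists were chosen with earlier results of these data known. All 44 members are named; those in full are the largest and smallest called fold at 24 h of each list and those whose call differs between times or sides, and up to 4 genes of each other list are those with the smallest p at 24 h; 1 such gene is not reported here. Cxcl9 and other genes outside the rule are given by counts. Alternatives were RLE normalization, DESeq2 1.42.0, no filter on low counts, no batch term, single batches, leaving out each library, no animal block, and, chosen after seeing the data, leaving out LF3 alone or with another of these changes, and animal PF1 from the side comparisons.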

Additional observations from a re-analysis of the deposited data

Results flagged for a closer look

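The highest or lowest library was compared with the range of its group in 96 groups of 4 to 10 libraries. These were 60 list medians, and 36 of CPM for Bst2, Ifi27l2a and Ifitm3, by sex, side and time. For independent, normally distributed values chance would mark about 1 group in 20. The same animals recur over the lists and genes here, so that rate need not hold. The values below are log2 differences from naive for list medians.

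Of the 10 list medians that stood far from the rest of their group, 4 were those of LF3 at 72 h. Its gamma-like median was 0.14 ipsilaterally (other females 1.30 to 1.96) and -0.99 contralaterally (-0.11 to 0.57). Contralaterally its type I-like median was -0.61 (0.08 to 0.73) and its sensor median -1.39 (-0.06 to 0.44). The 3 short effector genes, chosen after their values in LF3 had been seen, stood on the other side: Bst2 at 98.8 CPM ipsilaterally (19.9 to 42.4) and 18.7 CPM contralaterally (2.19 to 4.71), Ifi27l2a at 144 CPM (3.81 to 13.4) and 12.2 CPM (0.321 to 0.915), and Ifitm3 at 776 CPM (39.3 to 91.2) and 96.2 CPM (7.86 to 11.3).

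The male LM2 at 72 h was low contralaterally in its type I-like (-0.19, other males 0.07 to 0.11), gamma-like (-0.21, others 0.04 to 0.17) and sensor medians (-0.66, others -0.05 to 0.26). Ipsilaterally LM2 was high in Ifi27l2a at 18.3 CPM (4.79 to 9.03) and Ifitm3 at 97.9 CPM (49.2 to 61.4). Genes with less than 1500 bp of exon took 4.90% of the counts of that library, the highest share of the 86 libraries besides LF3. The female RF1 at 24 h had Ifi27l2a at 5.32 CPM (1.30 to 2.44). Among naive mice the female KF3 was low in its ipsilateral type I-like median (-0.53, others -0.02 to 0.26) and its contralateral sensor median (-0.65, others -0.12 to 0.12), and the male GM2 in its ipsilateral other effector median (-0.22, others 0.01 to 0.14).

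The ipsilateral library of PM1, which entered no comparison, had list medians above those of every naive library, though single members such as Cmpk2 and Gbp6 lay within the naive range. Those medians were 2.49 (type I-like), 1.67 (gamma-like), 1.91 (sensors), 1.67 (transcription factors) and 2.54 (other effectors), where the highest naive values were 0.26, 0.55, 0.47, 0.21 and 0.24.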

How the results depend on the processing

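Counts of members called against naive in the ipsilateral cortex stayed within 38 to 42 at 24 h and 41 to 43 at 72 h over the alternatives run, and leaving out single libraries gave 41 to 42 at each time. For 72 h against 24 h the main count of 23 became 13 in batch B alone, and ranged from 15 (without LM2) to 26 (without LF3). Contralateral counts were small and moved more. At 24 h (0 called) it was 1 without LF3, with or without the batch term. At 72 h (1 called) it was 2 with RLE normalization, with no filter, with no batch term, and with no batch term and without LF3, and 0 in batch B, in batch B without LF3 and without LF3, with a range of 0 to 4 (without PF1) over single libraries. For 72 h against 24 h (4 called) it was 2 with DESeq2 and with no filter, 1 with no batch term, with or without LF3, and 0 in batch B, with or without LF3, and without LF3 alone, with a range of 0 to 5 (without PF2). In contralateral males at 24 h (0 called) it was 1 with no batch term and without LF3, and in contralateral females at 72 h (2 called) 1 with DESeq2 and with no batch term and without LF3, and 0 in batch B, with or without LF3, and without LF3 alone. The cause of these changes was not tested. With no replicate block in place of the animal pairing, the side comparison called 42, 43 and 0 members at 24 h, 72 h and in naive mice, against 42, 43 and 0 with it, so the counts did not move. Over single genes 1575 alternative values kept their direction and call, 50 lost the call and 2 reversed: Ifitm3 contralaterally at 72 h against 24 h, -0.0808 with no batch term and without LF3, and Cmpk2 between the sides at 72 h, 0.20 in batch B alone. DESeq2 gave no adjusted p for 7 contralateral members at 72 h against 24 h. Depth limited Oas3, Oasl1, Cxcl9, Cxcl10 and Zbp1 contralaterally and Cxcl9 and the interferon genes on both sides, where differences were not detectable at this depth.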
